A study of Drosophila melanogaster with 4 samples.

Results

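The regions described here are 214 isolated stretches of chromatin enriched for ubiquitinated histone H2B in third-instar larvae of Drosophila melanogaster. They make up 3.80% of the 5627 enriched regions in the combined list of the study, and each stood alone in unmarked surroundings. All were chosen by their measured position, width and overlap. Each lay on X or on 1 of the 4 large autosome arms, the 5 major arms from here on, and was under 20 kb wide. At least 15 kb free of any enriched region separated each from the next one on both sides, and each overlapped a region in both replicate lists by at least 1 bp. Together they covered 1.26 Mb, or 3.56% of the bases in the combined list.

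The larvae were of the wild-type strain Oregon-R and received no treatment named in the labels. Chromatin was fixed with formaldehyde and precipitated with NRO3, a mouse monoclonal antibody made against the junction of ubiquitin and human histone H2B. The study has 2 immunoprecipitated samples and 2 input samples, all of the same strain, stage and genotype, and the input samples were not analysed here. Each immunoprecipitated sample gave a list of regions, and a combined list stands for the replicate set. Each region has a score given by the authors in an unstated unit, and scores are used here to describe and rank regions. Read depth is unknown, and the labels do not say whether the replicates came from separate collections of larvae, so their spread can be technical. Whether a score reflects a strong mark in few cells or a weak mark in many cannot be told apart in material from whole larvae.

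Ubiquitin is attached to a lysine near the end of histone H2B by the ligase Bre1 and its partner conjugating enzyme. The mark accumulates over the bodies of genes while RNA polymerase II transcribes them, and its placement depends on the Paf1 complex, which travels with the polymerase. It is removed again by ubiquitin proteases, among them the one carried by the coactivator SAGA. Positions are on FlyBase release 5. The lists name no genes, and the only gene table used here has release 6 positions, so no gene was assigned to a region.

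The isolated regions were a few kilobases wide, with a median of 4.62 kb in the combined list. The middle 50% lay between 2.96 and 7.18 kb, 57 of the 214 were under 3 kb and 31 were at least 10 kb. In the replicates the best-matching regions were narrower, with median widths of 3.65 kb in replicate 1 and 3.87 kb in replicate 2 (mean 3.76 kb ± 0.151, SD, n = 2). Where a region was broken in a replicate, this is the width of 1 piece. The other 3364 regions under 20 kb on the major arms that were seen in both replicates had a median width of 4.89 kb. Their best-matching regions were likewise narrower, with medians of 3.715 kb in replicate 1 and 3.904 kb in replicate 2. Width was limited by the rule for both sets, so these widths are a description only.

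The unmarked stretches around them were often much longer than the rule asked. The gap to the previous enriched region had a median of 42.0 kb and that to the next one 38.9 kb, and the smaller of the 2 gaps had a median of 24.5 kb. Both gaps reached 30 kb at 83 regions, 50 kb at 37 and 100 kb at 7. Isolation was frequently lopsided, since at 66 regions the larger gap was over 3 times the smaller. Across the 214 regions the lengths of the 2 gaps were nearly unrelated, with a Spearman's rho of -0.0022 and a Pearson's r of 0.0984. Some neighbouring members share a gap, so these points are not independent.

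**Figure D1:**
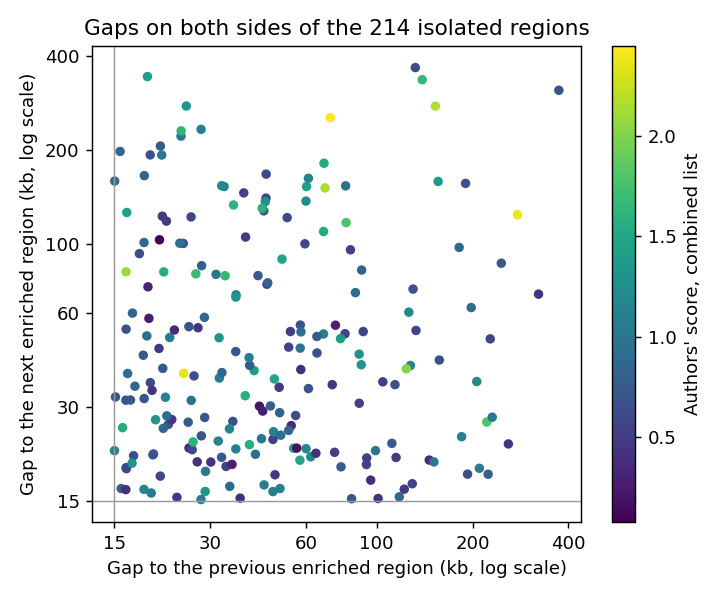
Each point is 1 of the 214 isolated regions, placed by the gap to the previous (horizontal axis) and next (vertical axis) enriched region of the combined list, in kb on log scales, and coloured by the authors' score. Grey lines mark the 15 kb limit. Points fill the whole field above both lines, with few near the upper right corner, where the 7 regions with both gaps of at least 100 kb lie.

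At the 5 most isolated regions the smaller gap was between 139 and 311 kb. The first, at 23707618 to 23710412 on 3L, was 2.79 kb wide and stood 373 kb from the region before it and 311 kb from the one after it. Its score was modest and alike in both replicates, at 0.699 in replicate 1 and 0.748 in replicate 2 (mean 0.723 ± 0.0347, SD, n = 2). The second, at 17963118 to 17973718 on 2L, was 10.6 kb wide between gaps of 190 and 156 kb. It scored 0.825 and 0.740 in replicates 1 and 2 and was broken into 2 pieces in each. The third, at 16709378 to 16722986 on 2R, lay between gaps of 156 and 159 kb and was likewise 2 pieces in each replicate. Its scores of 1.50 and 1.63 were well above those of the first 2. The fourth, at 15713458 to 15721548 on 2R, had gaps of 153 and 277 kb and is among the highest scores described further on. The fifth, at 1825814 to 1833560 on 3R, was 7.75 kb wide between gaps of 139 and 337 kb, with scores of 1.60 and 1.79. Distance from other marked chromatin thus went with both modest and high scores among these 5.

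Just inside the limit of 15 kb lay 3 regions whose smaller gap was 15.0, 15.0 and 15.1 kb, with scores of 1.13, 0.932 and 1.11. Just outside it lay 3 regions with gaps of 14.9, 14.7 and 14.6 kb and scores of 0.963, 1.01 and 0.638. At the limit of 20 kb in width, the widest regions inside were 19.9, 19.9 and 19.8 kb. The narrowest outside that met the same gap rule were 23.0, 23.9 and 28.0 kb. Only 14 regions of 20 kb or more met the gap rule, all of them seen in both replicates.

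The unmarked surroundings were local. Within 15 kb of the isolated regions the combined list covers nothing, by the rule. From 15 to 30 kb outward, 14.1% of the bases lay in enriched regions of the combined list, from 30 to 50 kb 23.8%, from 50 to 100 kb 27.0% and from 100 to 200 kb 28.6%. The last value was close to the 29.4% covered on the 5 major arms as a whole. Around the other 3364 regions the course ran the other way, with 43.3% covered within 15 kb, 40.1% from 15 to 30 kb and 31.5% from 100 to 200 kb. The replicates followed the same course, with 11.4% ± 0.241 covered at 15 to 30 kb and 24.4% ± 0.753 at 100 to 200 kb around isolated regions (SD, n = 2 each). Around the other regions those shares were 34.3% ± 0.951 and 27.0% ± 0.783 (SD, n = 2 each). No test was made, since the rule itself fixes the inner part of this course and neighbouring distances share regions.

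**Figure D2:**
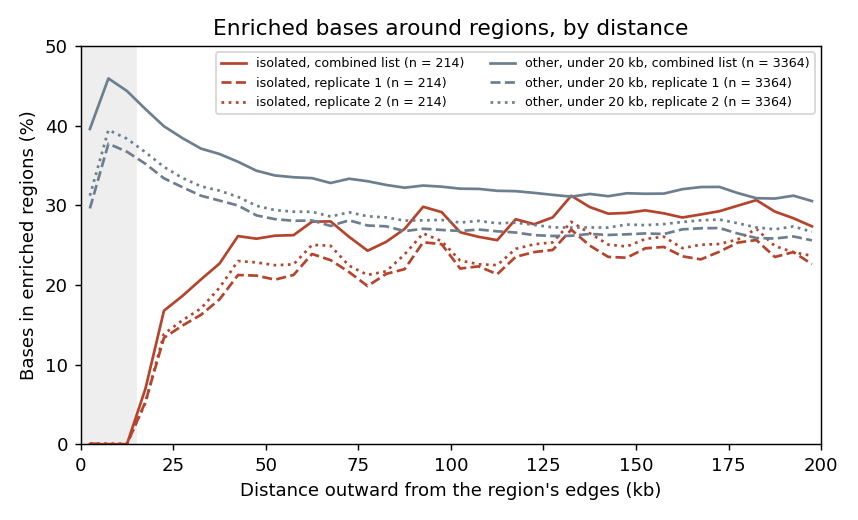
Share of bases in enriched regions (vertical axis, %) in 5 kb steps outward from both edges (horizontal axis, kb), around the 214 isolated regions and around the 3364 other regions, in the combined list and in each replicate. The grey band is the 15 kb that the rule keeps free in the combined list. Around isolated regions coverage climbs to 23.8% at 30 to 50 kb and 28.6% at 100 to 200 kb, while around other regions it peaks at 45.9% from 5 to 10 kb and averages 31.5% at 100 to 200 kb.

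Single regions departed from this average. Coverage within 100 kb on each side had a median of 19.4% in the combined list and reached 54.8% for the region at 17458496 to 17460558 on 3L, where marked chromatin was dense beyond the gaps. At the other extreme, 7 regions had no other enriched base within 100 kb on either side. These were 3 on 2R and 1 each on 2L, 3L, 3R and X.

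The flanks were also free in the replicate lists, which the gap rule did not use directly. In replicate 1 no separate region lay within 15 kb of any of the 214. In replicate 2 this held for 212, or 99.1%. The 2 exceptions were narrow. Next to the region at 17458496 to 17460558 on 3L, replicate 2 held a region of 1587 bp with a score of 0.136, 7117 bp away. Next to the region at 22277658 to 22280164 on 3R it held one of 1397 bp with a score of 0.488, 13148 bp away. The combined list stands for the same 2 samples, so this is a check on the lists and no independent measurement. When the width and gap limits were applied to each replicate's own list, 314 regions of replicate 1 and 309 of replicate 2 were isolated. Of these, 182 (58.0%) and 191 (61.8%) overlapped 1 of the 214 regions, and they took in 85.0% and 89.3% of the 214. In all, 175 of the 214 were isolated in both replicate lists. In a replicate's own list, pieces of a broken region count as each other's neighbours. Of the 214, 182 were a single region in replicate 1 and 193 in replicate 2, the latter including the 2 exceptions above.

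Most regions isolated by width and gap were found in both replicates. Of 284 such regions, 214 (75.4%) overlapped a region in both, against 68.7% of the 4898 regions under 20 kb that were not isolated. Overlap with both replicates was part of the rule, so nothing is read from the first share beyond its size. Of the 70 that fell out, 44 overlapped neither replicate, 21 replicate 2 alone and 5 replicate 1 alone. These 70 were narrow, with a median of 1.48 kb and none over 4.54 kb, and had a median score of 0.384. Among candidates under 2 kb, 12 of 71 isolated regions and 153 of 1280 others were found in both replicates. From 2 to 3 kb these counts were 45 of 52 (86.5%) and 649 of 916 (70.9%). From 3 to 4 kb they were 32 of 34 (94.1%) and 530 of 612 (86.6%), and from 4 to 6 kb 49 of 51 and 699 of 745. These differences were not tested. All 76 isolated candidates of 6 kb or more were found in both replicates. So were 759 of 771 other regions from 6 to 10 kb and all 574 from 10 to 20 kb. Support at these widths was thus near complete in both sets.

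**Figure D3:**
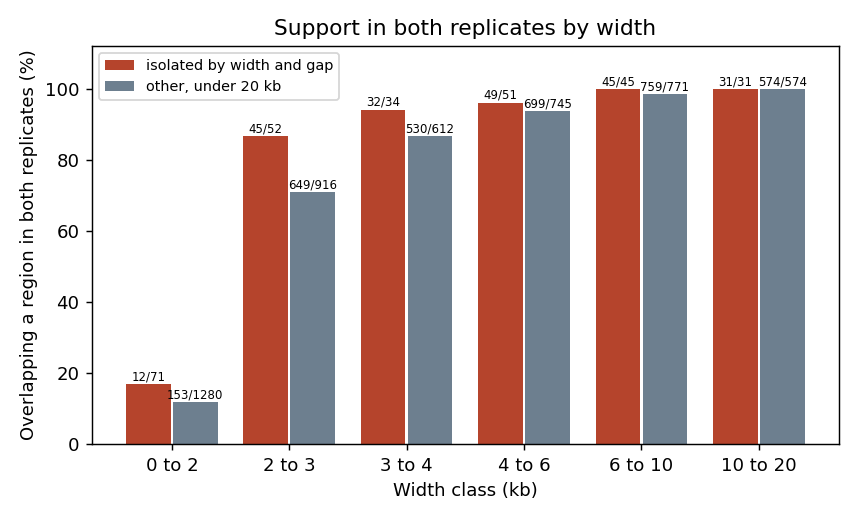
Share of regions that overlap a region in both replicates (vertical axis, %), by width class in kb, for the 284 regions isolated by width and gap (left bars) and the 4898 other regions under 20 kb (right bars). Labels on the bars give regions in both replicates over all regions of the class. Under 2 kb few regions of either set are found in both replicates, and from 6 kb upward nearly all of both sets are. From 2 to 3 kb the share is 86.5% for isolated regions and 70.9% for the others.

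Most isolated regions were 1 unbroken region in both replicates. A single region in each replicate matched 177 of the 214 (82.7%), compared with 2677 of the 3364 other regions (79.6%). The replicates covered a median of 93.0% and 94.4% of an isolated region's bases (mean 93.7% ± 0.985, SD, n = 2). For the other regions these medians were much the same, at 91.2% and 93.6% (mean 92.4% ± 1.70, SD, n = 2). The outer edges lay a median of 114.5 bp apart at the start and 109 bp apart at the end, and both edges agreed within 200 bp at 107 of the 214. For the other regions both edges agreed within 200 bp at 1342 of 3364, or 39.9%. This difference was not tested. An edge is the outer end of all replicate pieces that overlap a region, including a piece that runs on into a neighbour. The gap rule leaves less room for that at isolated regions, so the 2 sets are not compared on equal terms here.

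A few isolated regions were uncertain in shape. In 20 of the 214, a start or an end differed by over 1 kb between the replicates. Under 50% of the bases were covered by 1 of the replicates in 3 regions. In the first, at 7384678 to 7388366 on 2L, replicate 1 marked 7384986 to 7386910 and replicate 2 marked 7386885 to 7388309, so the replicates met in the middle and hardly overlapped. The second, at 977780 to 981696 on 2R, was covered at 81.1% by replicate 1 and 49.2% by replicate 2. The third, at 11362730 to 11368044 on 2R, was covered at 42.7% by replicate 1 and 90.4% by replicate 2. All 3 had low scores in the combined list, from 0.376 to 0.536.

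The widest isolated regions were of several kinds. The region at 15289464 to 15309318 on 3R, 19.9 kb wide, was 1 unbroken region in both replicates and scored 1.49 in replicate 1 and 1.50 in replicate 2. That at 14390788 to 14410026 on 2L, 19.2 kb wide, was also unbroken and scored 1.69 in both. These 2 were strong and continuous. The region at 5859756 to 5879646 on 2L, 19.9 kb wide, was 4 pieces in replicate 1 and 2 in replicate 2 and scored 0.699 in both. The region at 20702290 to 20722138 on 2R was 5 pieces in replicate 1 but 1 in replicate 2, with scores of 0.897 and 0.958. The region at 8759494 to 8779324 on 3L was 2 pieces in each, with scores of 0.670 and 0.767. Here the score of a broken region is that of its best-matching piece.

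Scores of the isolated regions spanned a wide range and, over all widths together, ranked alike in both replicates. In the combined list they ran from 0.0763 to 2.45 with a median of 0.798. The median was 0.859 in replicate 1 and 0.896 in replicate 2 (mean 0.878 ± 0.0262, SD, n = 2), against 0.811 and 0.827 for the other 3364 regions (mean 0.819 ± 0.0112, SD, n = 2). Between the replicates, the scores of the 214 regions had a Spearman's rho of 0.935 and a Pearson's r of 0.959, beside 0.914 and 0.938 over the other 3364. These correlations are across regions of the same 2 libraries, which are not independent points. The score differed between the replicates by a median of 0.0896, and it was the higher in replicate 2 at 135 of 214 regions (63.1%), beside 1865 of the 3364 others (55.4%), a difference that was not tested. How scores of the 2 lists were scaled is not given. The widest disagreement was at 25140576 to 25146026 on 3R, which scored 1.02 in replicate 1 and 1.42 in replicate 2.

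**Figure D4:**
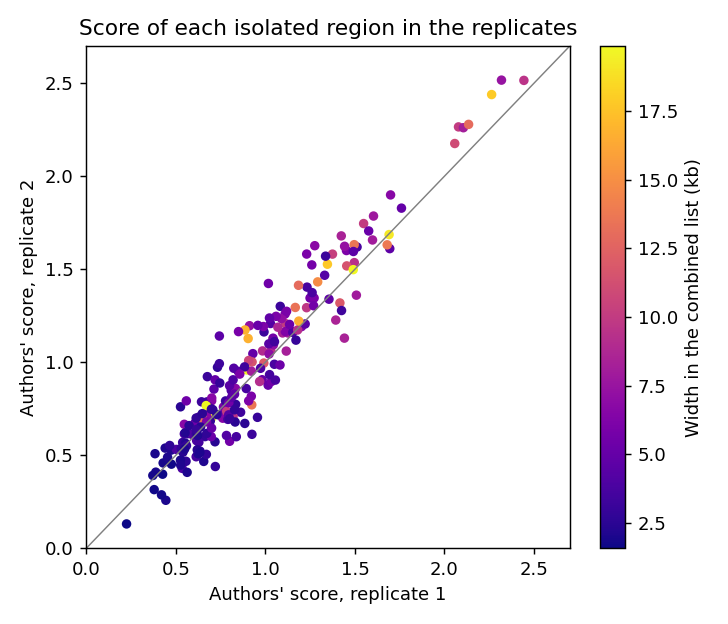
Authors' score of each of the 214 isolated regions in replicate 1 (horizontal axis) and replicate 2 (vertical axis), coloured by width in kb, with the line of equal scores. The 7 regions with combined scores of at least 2 stand apart at the upper right, and all of them lie above the line.

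A combined score of at least 2 was reached by 7 of the 214 isolated regions (3.27%) and by 13 of the 3364 other regions (0.386%), a difference that was not tested. Of the 10 highest scores among all major-arm regions seen in both replicates, 3 belonged to isolated regions, which make up 5.54% of those regions. The highest isolated score was at 15228148 to 15237684 on 3L, a region of 9.54 kb with 71.5 kb free before it and 254 kb after it. It scored 2.44 in replicate 1 and 2.51 in replicate 2 (mean 2.48 ± 0.0505, SD, n = 2). Its start differed by 49 bp and its end by -378 bp (replicate 2 minus replicate 1). The next was at 15998374 to 16005756 on 2R, 7.38 kb wide, with scores of 2.32 and 2.52 and gaps of 277 and 124 kb. The region at 3400478 to 3418292 on 3L was next, 17.8 kb wide, with scores of 2.26 and 2.44 and much closer neighbours, at 24.8 and 38.4 kb. These 3 thus combined very high scores with quite different degrees of isolation.

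The fourth, at 15713458 to 15721548 on 2R, scored 2.11 and 2.26 in replicates 1 and 2. The fifth, at 12813274 to 12823320 on 2L, scored 2.08 and 2.26 and had gaps of 68.8 and 151 kb. The sixth, at 6761904 to 6774888 on X, scored 2.13 and 2.28 and was the only 1 of the 10 highest that was broken, into 2 pieces in replicate 1. The seventh, at 902518 to 913472 on 3R, scored 2.06 and 2.18. Its combined score was 2.03 and the eighth was 1.80, with none in between. The remaining 3 of the 10 were at 9706312 to 9712982 on 2R (scores 1.70 and 1.90), at 14490174 to 14495150 on 2L (1.76 and 1.83) and at 14390788 to 14410026 on 2L (1.69 and 1.69). The last of these was the only 1 of the 10 with a score no higher in replicate 2 than in replicate 1. All 10 were covered to at least 88.2% by each replicate.

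At the lower end, the weakest isolated region, at 10532406 to 10533968 on 2R, was 1.56 kb wide and had a combined score of 0.0763, beside 0.225 in replicate 1 and 0.131 in replicate 2. The next lowest were at 14192096 to 14193680 on 3R (0.183) and 11178776 to 11180476 on 2L (0.215). All 3 were single regions covered to at least 83.8% by each replicate. The combined score was below both replicate scores at 130 of the 214 regions, these 3 included. Each of these 3 also had the lowest score among the isolated regions of its arm in both replicates. How scores are scaled between the 3 lists is not given, so differences in size between lists, this count included, are a description only.

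Within width classes from 3 to 20 kb, isolated regions had higher median scores than the others in all 3 lists. Widths can still differ inside a class. Score rose with width in both sets, with a rho of 0.689 over the isolated and 0.657 over the other regions in the combined list, so they were set side by side by width class. From 6 to 10 kb the median combined score was 1.08 for 45 isolated regions and 0.918 for 759 others. In replicate 1 these medians were 1.11 and 0.955, and in replicate 2 they were 1.19 and 1.00. From 3 to 4 kb the combined medians were 0.789 for 32 isolated and 0.656 for 530 other regions, and from 4 to 6 kb 0.882 for 49 isolated and 0.774 for 699 others. From 10 to 20 kb the medians were closer, at 1.21 for 31 isolated and 1.12 for 574 other regions in the combined list, 1.18 and 1.13 in replicate 1 and 1.29 and 1.22 in replicate 2. Below 3 kb the lists did not go one way. From 2 to 3 kb the combined medians were 0.510 for 45 isolated and 0.533 for 649 others, while they were 0.625 and 0.621 in replicate 1 and 0.615 and 0.599 in replicate 2. Under 2 kb the isolated regions had the lower median in all 3 lists, with combined medians of 0.292 for 12 isolated and 0.335 for 153 others. In every class the middle 50% of the 2 sets overlapped.

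**Figure D5:**
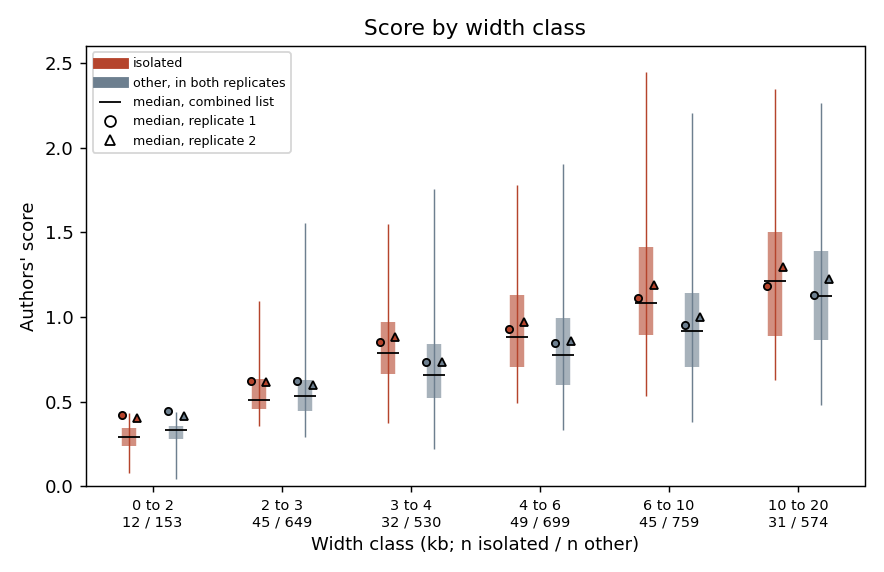
Authors' score (vertical axis) by width class (horizontal axis, kb, with the number of isolated and other regions) for isolated regions (left) and other regions under 20 kb seen in both replicates (right). Thick bars span the middle 50% and thin lines the full range in the combined list, dashes mark its medians, and circles and triangles the medians of replicates 1 and 2. From 3 to 20 kb the isolated medians lie above the others in all 3 lists, for example at 1.08 and 0.918 from 6 to 10 kb.

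Averaged over the 6 width classes by the number of isolated regions, the score difference (isolated minus other) came to 0.0846 by the combined scores, 0.0759 by those of replicate 1 and 0.0998 by those of replicate 2. It had the same sign on each of the 5 arms and was smallest on 2L (0.0337) and largest on 3R (0.169). The scores come from the same precipitations that chose the regions, so no test was made. The difference in the combined list fell to 0.0457 when 3R was left out. It was 0.0505 by residuals from a fit of score on width, which does not rest on classes. It is small beside the middle 50% of isolated scores, from 0.577 to 1.12.

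Among the isolated regions, the median combined score was somewhat higher where the unmarked stretches were longer, but so was width in part. The median combined score was 0.731 for the 62 regions whose smaller gap was under 20 kb, 0.794 for 69 between 20 and 30 kb, 0.820 for 46 between 30 and 50 kb and 0.898 for 37 beyond that. The median widths of these 4 sets were 4.42, 4.49, 5.39 and 4.87 kb, and scores were not compared at equal width here. Replicate 2 kept this order (0.780, 0.933, 0.945 and 1.00). Replicate 1 did not (0.836, 0.893, 0.821 and 0.926). Over all 214 the rho between smaller gap and combined score was 0.160, which describes a weak relation.

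Isolated regions occurred on all 5 arms, and X held the fewest. There were 56 on 3R, 50 on 3L, 43 on 2L, 39 on 2R and 26 on X. Per Mb this is 2.01 on 3R, 2.04 on 3L, 1.87 on 2L, 1.84 on 2R and 1.16 on X. As a share of the enriched regions of the arm it is 4.67%, 4.76%, 4.46%, 3.37% and 2.38%. On X the isolated regions were also the narrowest, with a median width of 3.55 kb, against 4.44 to 5.99 kb on the autosome arms. Their median combined score on X was 0.746, within the span of 0.703 on 2L to 0.889 on 3R. In replicates 1 and 2 the median on X was 0.906 and 0.882. There the lowest was again on 2L (0.766 and 0.787), but the highest was on 2R (0.921 and 0.958). Scores of the arms were not compared at equal width. These differences between arms were not tested.

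Along the arms the isolated regions were scattered, with some local groups. Of the 122 windows of 1 Mb (the last of each arm is shorter), 28 held no isolated region, 29 held 1, 32 held 2 and 21 held 3. The window from 9 to 10 Mb on 3R held the most, at 7. In the combined list, 87 of the 214 had another isolated region as their direct neighbour, so that the 214 fell into 165 runs, 29 of them pairs, 8 triplets and 1 of 5. The run of 5, at 5892406 to 6089534 on 3L, spread over 197 kb, of which the 5 regions covered 6.86%. All 5 were weak, with combined scores from 0.312 to 0.585. The triplet at 15552146 to 16005756 on 2R was the opposite, with scores from 1.08 to 2.37 and 5.28% of 454 kb covered, and it held the second and the fourth highest scores of all isolated regions. Sparse stretches thus held series of weak regions in 1 place and of strong ones in another. The 2 series also differed in width, from 1.825 to 5.481 kb in the run of 5 and from 7.383 to 8.467 kb in the triplet. Since score rose with width, they are not compared at equal width.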

How the data were processed

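The submitters' processing notes name Bowtie 0.12.7 as the aligner, and the file headers name FlyBase release 5 as the build. The deposited lists hold the position of each region and the authors' score. How regions were found and scored, how the input entered and how the combined list arose is not given in the sources used here. Depth is unknown.

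Samples were grouped by title. The 1 region the combined file calls depleted was left out. Gaps were counted to the nearest enriched region, first and last regions of each arm were skipped, and a replicate's score is that of the piece sharing most bases. Work was done in Python 3.11.15 with numpy 2.4.6, pandas 2.3.3, scipy 1.17.1 and matplotlib 3.10.9. The selection was checked on simulated lists against an exhaustive search. No test was run, since every measure comes from the precipitations that chose the regions, and correlations carry no p-value. Regions named are the 10 highest scores, the 5 widest, the 5 with the largest smaller gap and those beside each limit. Other named regions were chosen after their values were seen. Members, comparisons and lists were chosen with earlier results of these data known. Alternatives covered gap, width and overlap limits, merging, scores, single replicates and single arms.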

Additional observations from a re-analysis of the deposited data

How the results depend on the processing

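Of the alternatives, those without a single arm, with close neighbours and with replicate regions of at least 2 kb were added after the data were seen. The number of isolated regions was 235 and 219 without replicates 1 and 2. For the number, width, score and flanks, this means that overlap with that replicate was not required. The combined list stayed the same. It was 318, 152 and 83 with gaps of 10, 20 and 30 kb, 183 under 10 kb in width, 228 with no width limit, 211 with 50% covered by each replicate, 252 after merging regions under 500 bp apart and 454 with only the top 50% of scores, where gaps are longer by construction. The median width was 4.98 kb with gaps of 30 kb and 4.04 kb under 10 kb in width, and 4.20 and 4.58 kb without replicates 1 and 2. The median score was 0.771, 0.832 and 0.864 with gaps of 10, 20 and 30 kb, 0.739 under 10 kb in width, and 0.738 and 0.783 without replicates 1 and 2. The share with free flanks was 70.4% with gaps of 10 kb, which allow neighbours within 15 kb. It was 100% with gaps of 20 or 30 kb and with replicate regions of at least 2 kb. Without the overlap rule for replicate 1 or replicate 2 it was 99.1%, with flanks still judged in both replicate lists. The rank correlation of scores between replicates was 0.925 for regions of at least 2 kb. The score difference, isolated minus other, stayed above 0 throughout. It was 0.0505 by residuals on width, 0.106 without 2L, 0.0457 without 3R, 0.109 against 1376 other regions with neighbours within 5 kb on both sides, and 0.0759 and 0.0998 in replicates 1 and 2 alone. What causes these shifts was not examined. No paired analysis was possible because none of the lists at hand comes from input. Unknown depth limits all values.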

Other observations

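One place was listed with opposite signs. The only depleted region of the combined list, at 17467738 to 17469300 on 3L with a score of -0.00675, lies 7.18 kb from the isolated region at 17458496 to 17460558. Replicate 2 lists an enriched region with a score of 0.136 at 17467676 to 17469262, which shares 1525 bp with it. Replicate 1 lists no region there. This is 1 of the 2 flank regions of replicate 2 described above.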
